A study of Rattus norvegicus with 2 samples.

Results

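The genes described here are 8 members of the ErbB system, 4 ligands that carry an EGF-like domain (Tgfa, Nrg1, Nrg2 and Hbegf) and the 4 receptors of the family (Egfr, Erbb2, Erbb3 and Erbb4). They were chosen by gene name among the 22777 genes with listed mRNA transcripts, and all 8 were found. The RNA came from the hypothalamus of female Sprague Dawley rats before puberty, at postnatal day 25, and at puberty, at postnatal day 35 in the first estrus. The design text gives 3 hypothalami per stage, and both groups were killed under deep pentobarbital anaesthesia, the sole agent named for them. The tables hold 1 value per stage and transcript, so each stage is 1 library here. The spread between rats is not in the tables, so the stages were compared without replicates and without a test. Values are FPKM, the mapped fragments scaled to transcript length and library depth, which can be compared between genes because they are given per length.

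ErbB receptors are tyrosine kinases of the cell surface that pair up when a ligand binds. Egfr binds transforming growth factor alpha (Tgfa) and the heparin-binding ligand Hbegf, while Erbb3 and Erbb4 bind the neuregulins, among them Nrg1 and Nrg2. Erbb2 has no known ligand of its own and acts as a partner of the others, and the kinase of Erbb3 is weak, so Erbb3 signals mainly in pairs. In the hypothalamus, astrocytes and tanycytes answer these ligands by releasing a prostaglandin that acts on GnRH neurons, and this glial route is known for its part in the timing of female puberty. Neuregulin signals are also known to act on oligodendrocytes through Erbb3.

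FPKM steps of 1 fragment could be read from weakly expressed genes, which gave the number of fragments behind each gene. Among transcripts of 1500 to 5000 nt that are the single form of their gene and rest on up to 10 fragments, 96.7% before puberty and 95.1% at puberty fell within 0.1 of a whole number. About 20200000 fragments lay on mRNAs before puberty and about 15800000 at puberty, 1.28 times as many before puberty. The 95% intervals below follow from these derived fragment numbers (exact Poisson for a level, exact binomial for a ratio, Wilson for the share of a form). They cover counting error only and not the spread between rats, since fragments of 1 library are not independent animals. The tissue was checked against 12 hypothalamic genes, all listed at 1 FPKM or more, of which 9 were higher and 3 lower at puberty, and whose summed level was 2697 FPKM before and 4102 FPKM at puberty. Most of that sum came from the peptide genes Pmch, with 1675 and 2723 FPKM, and Oxt, with 411 and 686 FPKM, and the other 10 genes summed to 611 and 693 FPKM. The 8 listed genes of thalamus and telencephalon, nearby brain regions, summed to 68.0 FPKM before and 37.3 FPKM at puberty, and all 7 of them at 1 FPKM or more were lower. All 6 fibroblast and meningeal genes were lower as well, with sums of 59.6 and 36.6 FPKM, and all 7 genes of oligodendrocyte progenitors, with sums of 189 and 155 FPKM. The part of these marker levels in the values of the ErbB genes was not tested, and in bulk RNA fewer cells of a type and less RNA per cell cannot be told apart.

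Of the 8 genes, Tgfa had the log2 ratio farthest from 0 with no added scaling. With the libraries scaled to equal Actb, Erbb4 was the farthest, at 0.52, and Tgfa stood at -0.19. Tgfa was listed at 6.95 FPKM before and 4.49 FPKM at puberty, and Egfr, its receptor, at 3.83 and 3.09 FPKM. Erbb4 was the most abundant member, with 17.9 FPKM before and 19.7 FPKM at puberty, followed by Erbb3 with 9.69 and 10.04 FPKM. The levels of the other ligands lay between 2.38 and 3.03 FPKM in both libraries, and Erbb2 was the lowest with 0.415 and 0.407 FPKM.

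**Figure D1:**
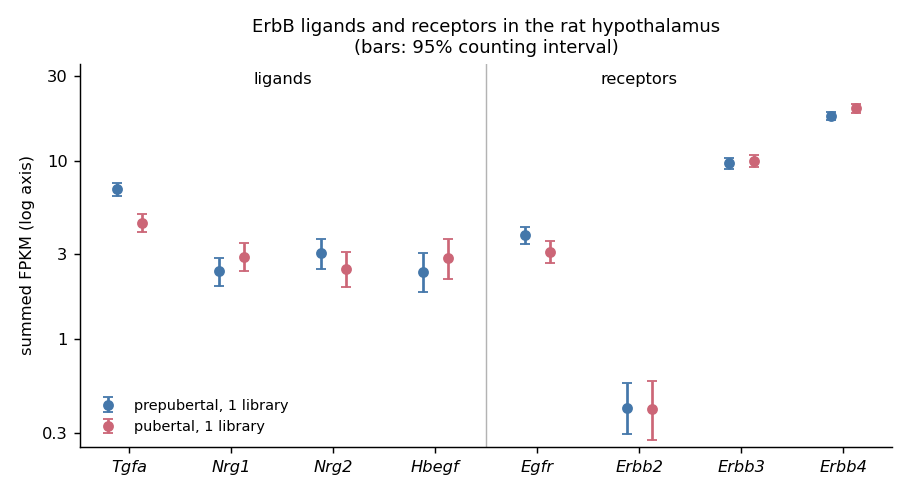
Summed FPKM (log axis) of the 4 ligands and 4 receptors in the prepubertal (blue) and the pubertal (red) library, 1 library per stage, with bars for the 95% counting interval. Tgfa is lower in the pubertal library, 4.49 against 6.95 FPKM, with intervals that do not meet, while the intervals of each other gene overlap.

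Tgfa (ENSRNOG00000016182) has 1 listed transcript, ENSRNOT00000057441, of 4222 nt. Its prepubertal level of 6.95 FPKM rested on about 572 fragments (95% counting interval 6.39 to 7.54 FPKM) and its pubertal level of 4.49 FPKM on about 289 fragments (3.99 to 5.04 FPKM). The pubertal level was 0.646 times the prepubertal one, with a counting interval of 0.559 to 0.746. On the scale used for all genes, log2 of (pubertal FPKM + 1) over (prepubertal FPKM + 1), the difference was -0.53, and 3.42% of the 14029 genes with at least 1 FPKM in a library had a lower value. The FPKM + 1 scale draws low levels towards 0, and without the added 1 the log2 ratio of Tgfa was -0.63.

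Hbegf (ENSRNOG00000018646), the other ligand of Egfr among the members, did not share this direction. Its single transcript of 1549 nt was listed at 2.38 FPKM before puberty and 2.85 FPKM at puberty. About 64 and 60 fragments stood behind these levels, so the ratio of 1.20 had a counting interval of 0.827 to 1.73. That interval holds 1 with no added scaling, whereas with the libraries scaled to equal Actb the ratio was 1.58 (1.09 to 2.29).

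The neuregulins were near each other in level and differed in direction by small amounts. Nrg1 (ENSRNOG00000010392) was listed at 2.41 FPKM before and 2.90 FPKM at puberty, from about 121 and 126 fragments. The ratio was 1.21, with a counting interval of 0.933 to 1.56. Nrg2 (ENSRNOG00000019093) was listed at 3.03 and 2.48 FPKM, from about 108 and 82 fragments, a ratio of 0.818 (0.606 to 1.10). Both intervals hold 1 with no added scaling. With equal Actb that of Nrg1 left it out (ratio 1.598, 1.23 to 2.07) and that of Nrg2 held it (1.08, 0.803 to 1.46).

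The order of the ligands was not the same in both libraries. Tgfa was the most abundant of the 4 in both, with 47.0% of their summed FPKM before puberty and 35.3% at puberty. Nrg2 stood next before puberty, whereas Nrg1 and Hbegf stood above Nrg2 at puberty. Among Nrg1, Nrg2 and Hbegf, neighbours in the order had overlapping counting intervals in both libraries. The summed FPKM of the 4 ligands was 14.8 before and 12.7 at puberty.

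Among the receptors, Egfr (ENSRNOG00000004332), the receptor of Tgfa and Hbegf, had the lowest ratio of the pubertal to the prepubertal level. It was listed at 3.83 FPKM (3.41 to 4.28) before and 3.09 FPKM (2.68 to 3.56) at puberty, from about 310 and 196 fragments of its single 4158 nt transcript ENSRNOT00000006087. The ratio was 0.809, with a counting interval of 0.673 to 0.970. That interval leaves out 1 with no added scaling alone, since it was 0.699 to 1.01 with the libraries scaled to equal medians and 0.891 to 1.29 with equal Actb, and held 0 (-0.36 to 0.04 on the log2 scale) after centring on length. The log2 ratio of FPKM + 1 was -0.24, and 17.9% of genes had a lower value.

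Erbb4 (ENSRNOG00000014248), a receptor of neuregulins, went the other way by a small amount. Its summed level was 17.9 FPKM (16.9 to 18.8) before and 19.7 FPKM (18.6 to 20.9) at puberty, from about 1315 and 1135 fragments. The ratio was 1.10, with a counting interval of 1.02 to 1.20, and the log2 ratio of FPKM + 1 was 0.14. Its share of the summed receptor FPKM was 56.2% before and 59.3% at puberty.

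Erbb3 (ENSRNOG00000004964), which binds neuregulins and signals mainly in pairs, was listed at 9.69 FPKM (9.03 to 10.4) and 10.04 FPKM (9.28 to 10.8). With about 798 and 646 fragments its ratio of 1.04 had a counting interval of 0.932 to 1.15. Erbb2 (ENSRNOG00000006450), the shared partner, was listed at 0.415 FPKM (0.295 to 0.568) and 0.407 FPKM (0.275 to 0.581), from about 39 and 30 fragments. Its ratio was 0.980, with a wide counting interval of 0.588 to 1.62, so a difference inside that range was not detectable at this depth. Erbb2 was the member below 1 FPKM in both libraries.

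In the order of levels, Erbb4, Erbb3, Tgfa and Egfr held the first 4 places in both libraries, and the counting intervals of neighbours among these 4 did not overlap. The interval of Egfr overlapped that of the next gene in both libraries, Nrg2 before puberty and Nrg1 at puberty. Erbb2 stood last, apart from its neighbour. Set beside all genes at 1 FPKM or more, Erbb4 lay above 57.3% of genes before and 60.6% at puberty, and Tgfa above 31.8% and 23.1%.

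The 8 genes as a list were split evenly, 4 higher and 4 lower at puberty. Their median log2 ratio was 0.02, against -0.01 for all genes at 1 FPKM or more, of which 48.9% were higher. For the ligands the median was -0.01 and for the receptors 0.02, each with 2 genes higher and 2 lower. None of the 7 members at 1 FPKM or more differed by at least 1.5-fold in FPKM + 1, where 4.65% of the 14029 genes did. Tgfa was nearest to this threshold and passed it with a pseudocount of 0.1, with a log2 ratio of -0.62, a setting under which 7.86% of all genes pass. The counting interval of the FPKM ratio left out 1 for 3 of the 8 members, Tgfa and Egfr below and Erbb4 above. Over 13927 genes with at least 1 FPKM in a library and 1 fragment in each, it left out 1 for 43.1%, with 19.5% higher and 23.6% lower. Erbb2 is outside that set, so the count to read beside it is 3 of 7, near the share of all genes. After scaling to equal medians or centring on length, the interval of Egfr held no difference, and those of Tgfa and Erbb4 still left it out. With equal Actb the intervals of 5 of the 7 left out 1, that of Tgfa below and those of Nrg1, Hbegf, Erbb3 (1.23 to 1.52) and Erbb4 above, as did those of 72.3% of the 13927 genes.

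**Figure D2:**
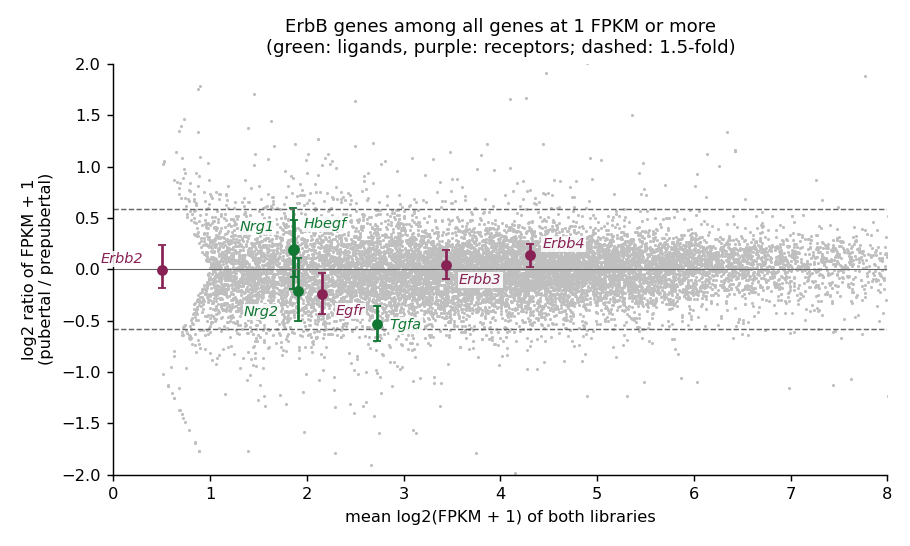
Log2 ratio of FPKM + 1, pubertal over prepubertal, against the mean log2(FPKM + 1) of both libraries for genes at 1 FPKM or more (grey) and the 8 members (green for ligands, purple for receptors, bars for 95% counting intervals; dashed lines at 1.5-fold; 478 genes lie outside the axes). Tgfa, at -0.53, sits near the lower dashed line, Nrg1 and Hbegf nearly coincide at 0.20 and 0.19, and Erbb3 and Erbb4 sit close to 0.

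Length and scaling bear on these directions. The median log2 ratio depended on transcript length, and was 0.07 in the shortest and -0.13 in the longest of 10 classes of transcript length. With the median of its class taken off, Tgfa was at -0.46, Egfr at -0.16, Erbb3 at 0.12 and Erbb4 at 0.21. Scaling both libraries to the same Actb level multiplied pubertal values by 1.32 and moved the median of all genes from -0.01 to 0.36, with 10.1% of genes lower in place of 51.1%. On that scale Tgfa was at -0.19 and was the 1 member below 0. Egfr then stood at 0.08 and Nrg2 at 0.09, so their direction turned.

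**Figure D3:**
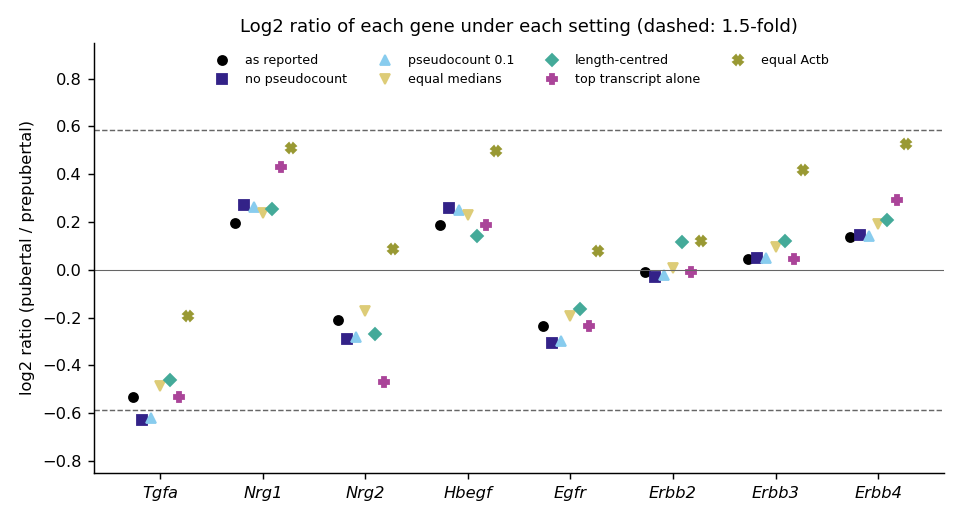
Log2 ratio (pubertal over prepubertal) of each member as reported (black circles) and under 6 other settings (other marks), with dashed lines at 1.5-fold. Tgfa is below 0 under every setting shown, from -0.63 to -0.19, and the values with equal Actb are the highest for every gene.

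The listed transcripts of a gene can differ in direction under a similar sum. The 8 members have 19 listed transcripts, of which 12 were above 0 in both libraries, 3 in the prepubertal library alone and 4 in neither. FPKM of forms of 1 gene are the authors' estimates from reads that the forms largely share, so they are less certain than the sum.

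Erbb4 has 2 listed transcripts that differ by 48 nt in length, a multiple of a codon. The longer, ENSRNOT00000019283 of 3846 nt, was listed at 2.88 FPKM before and 1.19 FPKM at puberty, while the shorter, ENSRNOT00000057877 of 3798 nt, was listed at 15.0 and 18.5 FPKM. The forms thus went in opposite directions, with log2 ratios of FPKM + 1 of -0.83 and 0.29. The longer form made up 16.1% of Erbb4 before puberty and 6.03% at puberty, a shift of 10.1 points. Erbb4 is known to be spliced at several places, including a short exon of its cytoplasmic tail that carries a binding site for PI3-kinase. Whether the 48 nt are that exon was not tested, since the sequences of these transcripts were not used here.

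Nrg1 has 5 listed transcripts, and 1 of them carried most of the signal. ENSRNOT00000058727 of 2930 nt was listed at 1.90 FPKM before and 2.90 FPKM at puberty, 78.8% and 100% of the gene. The other 2 forms measured before puberty, of 1422 and 2906 nt, had 0.398 and 0.111 FPKM from about 9.6 and 6.1 fragments, and were listed at 0 at puberty, where 3 fragments would have been 0.158 and 0.0697 FPKM. These 2 forms were named after their values were seen. Neuregulin transcripts are known to differ in their first exons and in whether they encode a membrane anchor, which decides how the ligand is presented.

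Nrg2 has 6 listed transcripts, and the form with the highest FPKM differed between the libraries. ENSRNOT00000068321 of 1384 nt was listed at 1.64 FPKM before and 0.906 FPKM at puberty, 53.9% and 36.5% of the gene. ENSRNOT00000049222 of 2811 nt was listed at 1.04 and 1.26 FPKM, 34.3% and 50.6%. In fragments the 2811 nt form led in both libraries, with about 55.3 and 52.2 against 38.3 and 16.6 for the 1384 nt form, so the change of order is in FPKM alone. A shift of at least 10 points in the FPKM share of a form was found in Erbb4, Nrg1 and Nrg2. Among 1677 genes with 2 or more transcripts and at least 1 FPKM in each library it was found in 22.5%. The median of the largest shift over these genes, which were not selected by fragment number, was 3.60 points. The 95% intervals of the fragment share of the 1384 nt Nrg2 form overlapped, 26.8% to 44.6% before and 13.4% to 30.7% at puberty. Those of the main Nrg1 form did not overlap (79.6% to 91.7% and 97.0% to 100%). Those of the shorter Erbb4 form did not overlap either (81.6% to 85.6% and 92.4% to 95.2%).

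**Figure D4:**
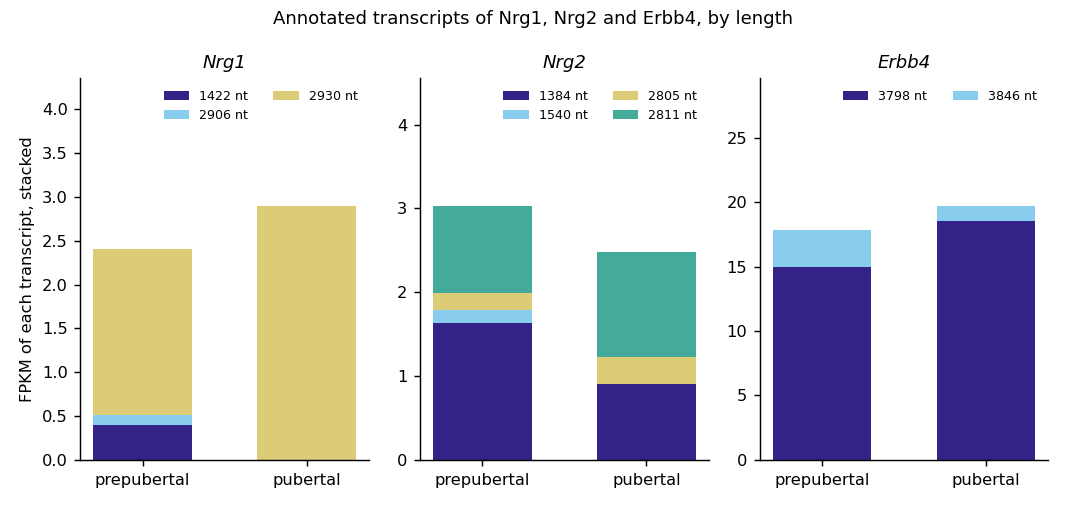
FPKM of each listed transcript above 0.01 FPKM, stacked, for Nrg1, Nrg2 and Erbb4 in the prepubertal and the pubertal library, coloured by length. The 3846 nt form of Erbb4 takes a smaller part at puberty (1.19 of 19.7 FPKM against 2.88 of 17.9 FPKM), the 2811 nt form of Nrg2 has the highest FPKM at puberty and the 1384 nt form before, and Nrg1 is listed with the 2930 nt form alone at puberty.

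Sequence before the start site is shown for Tgfa, Egfr and Erbb4, the 3 members whose counting interval left out 1. It comes from RefSeq on build GRCr8, which is not the build of the expression tables, and stops at the first annotated start of each gene. Capitals mark a GC box (GGGCGG on either strand), a site type common in promoters that lack a TATA box (TATAAA on either strand). Tgfa lies at chr4:120175469-120175548 on the plus strand, Egfr at chr14:95378376-95378625 on the plus strand and Erbb4 at chr9:78045634-78045856 on the minus strand.
Tgfa: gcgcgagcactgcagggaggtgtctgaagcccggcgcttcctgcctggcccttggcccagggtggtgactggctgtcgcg
Egfr: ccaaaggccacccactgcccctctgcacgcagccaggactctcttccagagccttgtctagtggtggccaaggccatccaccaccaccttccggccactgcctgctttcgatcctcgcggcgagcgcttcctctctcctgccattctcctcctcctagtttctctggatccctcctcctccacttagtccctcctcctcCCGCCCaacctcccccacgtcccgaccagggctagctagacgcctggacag
Erbb4: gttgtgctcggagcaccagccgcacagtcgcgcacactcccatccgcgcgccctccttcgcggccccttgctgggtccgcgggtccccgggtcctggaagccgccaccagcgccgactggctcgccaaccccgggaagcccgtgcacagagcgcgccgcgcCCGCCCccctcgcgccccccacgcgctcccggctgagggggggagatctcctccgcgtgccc

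Promoter windows of 300 bases, 250 before and 50 after the start taken for the window, were listed for 6 of the 8 members. That start is not always the first annotated start of the gene, before which lie 80 bases of the Tgfa window and 223 of the Erbb4 window. A GC box was present in 5 of the 6, and in 33.1% of 33469 windows of this length. A TATA box was present in 0 of the 6, and in 14.2% of all windows. G and C made up 63.0% to 76.7% of the bases in the 6 windows, with a median of 51.7% over all windows. The Tgfa window was the richest, with 76.7% and 2 GC boxes, both of which lie after the stretch printed above and so past the first annotated start of the gene. A match of letters is a description of the window and not evidence of binding.

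Other genes of the pathway were taken from 5 lists, 73 genes in all, which were ligands of the same family, proteases and their partners that release ligands, adaptors and kinases below the receptors, proteins that restrain the receptors, and the prostaglandin, adhesion and GnRH genes of the glial route. Of the 65 genes at 1 FPKM or more, 41 were lower and 24 higher at puberty, where 51.1% of all genes were lower, and 0 differed by at least 1.5-fold in FPKM + 1, beside 4.65% of all genes. Scaling multiplies every pubertal FPKM by 1 factor and so moves all FPKM ratios alike, while log2 ratios of FPKM + 1 move less at low levels. With equal medians 35 of the 65 and 43.1% of all genes were lower, and with equal Actb 11 of the 65 and 10.1% of all genes. The counts of the single lists below are to be read beside the share of all genes lower in the same setting. That share was 51.1% with no added scaling, 43.1% with equal medians and 10.1% with equal Actb. Ratios and intervals of single pathway genes below have no added scaling, and equal Actb would multiply each by 1.32. With no added scaling the interval left out 1 for 43.1% of the 13927 genes.

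Nrg3, a neuregulin that binds Erbb4, was the most abundant of the 7 other ligands and stood above Tgfa in both libraries. It was listed at 12.5 FPKM before and 9.56 FPKM at puberty, a ratio of 0.762 with a counting interval of 0.606 to 0.956. Btc, a ligand of Egfr and Erbb4, was listed at 1.49 and 1.89 FPKM from about 11 fragments in each library (ratio 1.26, 0.496 to 3.21). Egf, for which the receptor is named, was below 1 FPKM with 0.314 and 0.356 FPKM. The other 4 ligands, Areg, Ereg, Epgn and Nrg4, were below 1 FPKM in both libraries as well.

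Ligands of this family are made on the cell surface and cut free by proteases. Adam17, the main sheddase of Tgfa and Hbegf, was listed at 14.6 FPKM before and 14.2 FPKM at puberty, a ratio of 0.975 with a counting interval of 0.892 to 1.06. Adam19, which can cut neuregulins, was listed at 5.38 and 3.44 FPKM (ratio 0.640, 0.560 to 0.731), and Rhbdl2, an intramembrane protease, at 2.02 and 1.45 FPKM (ratio 0.720, 0.373 to 1.35). Adam9 and Adam12, of the same protease family, had the highest log2 ratios of FPKM + 1 among the genes of the list at 1 FPKM or more, 0.01 and -0.03. In all, 9 of the 10 genes at 1 FPKM or more were lower and 1 was higher, with a median log2 ratio of -0.09, and 7 were lower with equal medians and 2 with equal Actb. Among these 10 genes the intervals of Adam19 and Timp3 alone left out 1 with no added scaling. Timp3, named after its values were seen, was listed at 41.2 and 37.3 FPKM (ratio 0.904, 0.829 to 0.985).

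Among 26 adaptors and kinases, all at 1 FPKM or more, 17 were lower and 9 higher, with a median log2 ratio of -0.08, and 14 were lower with equal medians and 3 with equal Actb. Shc3, an adaptor of neurons, was listed at 30.2 and 22.1 FPKM (0.729, 0.659 to 0.806). Shc1, the adaptor of the same family that is used in most cell types, had 4.48 and 5.19 FPKM (1.16, 0.974 to 1.38).

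The genes that restrain ErbB signals were split, with 8 higher and 6 lower of 14 at 1 FPKM or more, and 6 lower with equal medians and 3 with equal Actb. Spry4, an inhibitor of the Ras cascade that is induced by it, was listed at 2.22 and 1.25 FPKM (ratio 0.563, counting interval 0.435 to 0.723), and Socs4, of a family of cytokine signal inhibitors, at 7.25 and 5.07 FPKM (0.699, 0.567 to 0.860). Errfi1, which binds and blocks the Egfr kinase, was listed at 9.12 and 10.8 FPKM (1.19, 0.978 to 1.44), and Lrig2 at 20.1 and 22.1 FPKM (1.10, 1.03 to 1.18).

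On the glial route to GnRH neurons, Ptgs2, the inducible enzyme of prostaglandin synthesis, was listed at 1.72 FPKM before and 1.71 FPKM at puberty, a ratio of 0.997 with a counting interval of 0.721 to 1.38. The prostaglandin E synthases Ptges and Ptges2 were listed at 0.867 and 1.04 FPKM (ratio 1.20, 0.583 to 2.47) and at 23.9 and 25.4 FPKM (1.07, 0.965 to 1.18). Ptger3, a receptor for prostaglandin E, was listed at 4.22 and 2.73 FPKM (0.648, 0.435 to 0.9504). The intervals of the other listed receptors for prostaglandin E, named after their values were seen, held 1. Ptger1 was listed at 2.41 and 2.48 FPKM (1.03, 0.756 to 1.40) and Ptger2 at 2.02 and 1.34 FPKM (0.665, 0.388 to 1.11). Ptger4 was listed at 0.790 and 0.570 FPKM (0.721, 0.336 to 1.48). Gnrh1, the gene of the hormone itself, was listed at 8.46 and 6.28 FPKM from about 37 and 22 fragments, so its ratio of 0.743 had a counting interval of 0.417 to 1.29. Of 13 genes at 1 FPKM or more in this list, 8 were lower and 5 higher, with a median log2 ratio of -0.06, and 7 were lower with equal medians and 3 with equal Actb.

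**Figure D5:**
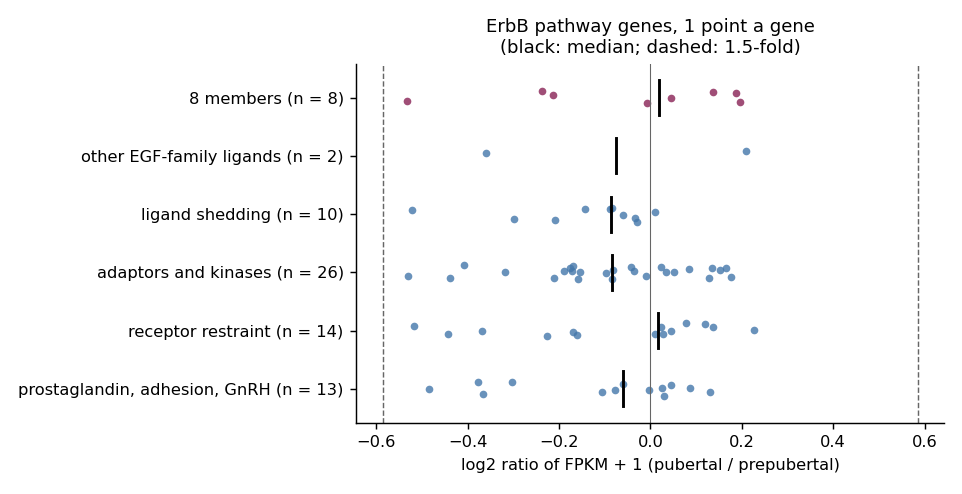
Log2 ratio of FPKM + 1 (pubertal over prepubertal) of the 8 members and of the genes at 1 FPKM or more in 5 lists of pathway genes, 1 point per gene, with the median as a black bar and 1.5-fold as dashed lines. No point passes 1.5-fold, and the medians lie between -0.09 and 0.02.

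Marker genes of several cell types of the brain were present in both libraries. Which of these cell types carry the receptors was not tested and cannot be read from bulk RNA. The 10 astrocyte genes summed to 3764 FPKM before and 3884 FPKM at puberty, with 6 higher and 4 lower. Aldoc was listed at 1095 and 1293 FPKM and Glul at 746 and 753 FPKM. Other genes of the list were lower at puberty, among them Gja1 with 106 and 66.3 FPKM (log2 ratio -0.67), Slc1a2 with 374 and 258 FPKM (-0.54) and Aqp4 with 224 and 188 FPKM (-0.25), which were named after their values were seen. The 6 listed genes of tanycytes and ependyma summed to 111 and 107 FPKM, led by Vim with 68.5 and 64.7 FPKM and Crym with 34.4 and 34.7 FPKM. The 10 genes of mature oligodendrocytes, with 5 higher and 5 lower, summed to 12801 and 13724 FPKM, with Mbp at 4633 and 5335 FPKM. Neuronal genes summed to 2364 and 2191 FPKM, with 2 of 10 higher. Microglial genes, all 6 higher, summed to 127 and 157 FPKM, those of endothelium and mural cells to 172 and 169 FPKM, and those of choroid plexus to 36.8 and 32.1 FPKM. No gene of these lists was at 0 in either library. The part of these levels in the ErbB values was not tested.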

How the data were processed

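The authors depleted ribosomal RNA, made strand-specific paired-end libraries, aligned reads with TopHat, assembled transcripts with Cufflinks 2.1.1 and Scripture, and deposited FPKM per transcript and stage from Cuffdiff 2.1.1. The submitters' processing notes name Rnor_5.0 and the methods an Rnor_6.0 annotation, so no coordinates of the tables are given, and how the 3 rats of a stage were combined is not given in the sources used here. The log2 ratios, p-values and q-values in the authors' comparison table, the lncRNA values and the lncRNA sequences were not used. That table gave gene names and transcript lengths. Its FPKM differed from the mRNA table for 13 transcripts, 0 of them of a member.

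FPKM was summed per gene, with a pseudocount of 1 and no added scaling. Fragments were derived as FPKM times (length minus 255 nt) divided by the value of 1 fragment, which was fitted on genes with a single transcript (0.0482 and 0.0616 FPKM times kb) and tested on simulated data. The members and lists were chosen with earlier results of these data known. Named genes were all members, their transcripts of at least 0.5 FPKM, the 2 largest rises and falls per pathway list at 1 FPKM or more, Egf, Adam17, Errfi1, Ptgs2, Ptges and Gnrh1, and the 2 most abundant markers per list. Some genes that this rule names are not reported here. Dio2, Foxj1 and Neurod2 of the marker lists were not analysed here. Alternatives were other pseudocounts, filters, thresholds, scalings and transcripts, the comparison table's FPKM and centring on length. Ratios without a pseudocount, shares of fragments and counting intervals under other scalings were added after seeing the data. Tables were computed in Python 3.11.15 (scipy 1.17.1, pandas 2.3.3, numpy 2.4.6) and drawn with matplotlib 3.10.9.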

Additional observations from a re-analysis of the deposited data

How the results depend on the processing

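With 1 library per stage no replicate could be left out, and no paired analysis was possible because each stage has a single column. Of 152 recomputed values 126 stayed and 26 moved. This tally does not measure robustness, because some of the values could not move. The comparison table holds the same FPKM for every member transcript, and a count of 0 past 1.5-fold cannot rise at 2-fold. Members with 1 listed transcript keep their value with the most abundant transcript alone. Equal Actb moved 15 values and left 4. Log2 ratios stayed within their counting interval, their median within 0.1 or their count within 1.5 times under the comparison table's FPKM, equal medians, centring on length, no pseudocount and a 2-fold threshold, although the interval of Egfr then held no difference under equal medians and centring. With equal Actb the intervals of Nrg1, Hbegf and Erbb3 came to leave out no difference and that of Egfr to hold it. With Actb made equal, which turned the sign of Nrg2, Egfr and Erbb2, the log2 ratios of Tgfa, Nrg1, Egfr, Erbb3 and Erbb4 were -0.19, 0.51, 0.079, 0.42 and 0.52, the medians of members, ligands and receptors 0.27, 0.29 and 0.27, and 11 pathway genes were lower and 1 past 1.5-fold, as were 17.2% of all genes. The sign of Erbb2 also turned with equal medians (0.008) and after centring on length (0.12). That of the ligand median turned with equal medians as well (0.03). With a pseudocount of 0.1, 1 member, 3 pathway genes and 7.86% of all genes passed 1.5-fold. With the most abundant transcript alone, Erbb4 was at 0.29, the ligand median at -0.14 and 1 pathway gene passed 1.5-fold. Nrg1, at 0.43, and Nrg2, at -0.47, moved further than Erbb4 there but within their wider counting intervals. At 5 FPKM or more Tgfa was the 1 ligand left, at -0.53. As a share of fragments, the forms with the highest FPKM before puberty made up 87.0% of Nrg1 and 35.3% of Nrg2, and at puberty 20.2% of Nrg2, whose 2811 nt form led in both libraries on this measure. The cause of these shifts was not tested. Depth limits Erbb2, Hbegf, Nrg1 and Nrg2 most, each with up to 126 fragments in a library.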
